A study of Mus musculus with 6 samples.

Results

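The genes described are 42 genes of glycolysis, of glucose and lactate transport and of the response to low oxygen, listed by symbol. For each, the brightest probe set with a single gene symbol was used, which gave 39 measured members among 19938 genes. Gapdh, the usual reference gene of this pathway, had 25 probe sets, each shared with other symbols, and Gpi1 and Eno1 had none with a single symbol in the table used here. The RNA came from embryoid bodies (EBs), floating aggregates of the established mouse embryonic stem (ES) cell line R1, which were set up at 35000 cells per ml with Lif left out of the medium. Retinoic acid (RA) was added at 2 μM to EBs that were 4 days old. Arrays, 2 for each time, were made of EBs just before RA (day 0) and of EBs that had spent 3 days (day 3) or 4 days (day 4) with it. All samples came from this line, and no EBs kept without RA to day 3 or day 4 are among the arrays, so the effect of RA and that of age in culture cannot be told apart. The sources used here do not give the oxygen level of the cultures.

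Glycolysis splits glucose into pyruvate in the cytosol. Glucose enters through Slc2a carriers, is trapped by hexokinases and committed by phosphofructokinase, and the resulting pyruvate either becomes lactate, which leaves through Slc16a carriers, or enters mitochondria through pyruvate dehydrogenase, an enzyme that Pdk kinases switch off. Oxygen acts on this pathway through hypoxia-inducible factors (HIFs). In normal oxygen, prolyl hydroxylases of the Egln family mark HIF alpha subunits for breakdown, and when oxygen is short the stable subunits bind short DNA elements and raise the transcription of glycolytic and other genes. Pluripotent mouse cells are known for a high rate of glycolysis, and oxygen reaches the centre of a floating aggregate only by diffusion.

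The medians of the 6 arrays over all genes lay between 7.49 and 7.66 (log2 intensity after Robust Multichip Average, RMA), and the 2 arrays of a day correlated at 0.999 on each day across genes, which are not independent replicates. Whether the arrays of a day stem from separate cultures is not stated in the labels, so the p-values reflect only how far these arrays differ, and that spread may be technical. Although all samples are labelled as embryonic stem cells, the 10 markers of pluripotent cells all fell, with summed intensities of 9753 to 10163 at day 0, 1284 to 1326 at day 3 and 1128 to 1303 at day 4. Those of 7 mesenchyme genes were 2032 to 2067, 5003 to 5198 and 5766 to 6199 on the same days. For 7 embryonic red cell genes they were 1522 to 1677, 21046 to 23609 and 6046 to 7003, a rise mostly of the globin genes Hba-x and Hbb-y. Of these 7 genes, 6 rose at day 3, whereas 3 rose at day 4, Gata1 fell (−1.01) and Alas2, Epor and Klf1 did not pass. Over all genes, 23.8% rose and 28.1% fell at day 3, and 25.9% rose and 25.6% fell at day 4. For 7 endothelial genes the sums were 4992 to 5212, 7326 to 7879 and 6330 to 6535. In such mixed aggregates a change in the share of cells and a change per cell cannot be told apart.

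At day 4, genes of the response to low oxygen were mostly higher than at day 0 and both glucose carriers and the lactate carrier gene Slc16a1 were lower, while enzymes of the glycolytic chain changed in both directions. Of the 39 members, 19 rose, 11 fell and 9 did not pass the test (limma, adjusted p of 0.05 or below, adjusted over all genes), where 25.9% of all genes rose and 25.6% fell. The arrays of day 4 and day 0 did not overlap for 34 of 39 members, against 73.0% of all genes. All changes given are differences of log2 RMA intensity, and the median change of the members was 0.09, beside −0.00 over all genes. A log2 change of 1 or more, meaning at least a doubling or its inverse, was reached by 12 members that passed, and by 10.4% of all genes. The share of calls that were higher was 50.2% over all genes, and 30.7% when arrays were also centred on their medians, which lowered the median change of all genes to −0.15 and moved the members that fell to 17. The rises among the 12 were those of Pdk2 (2.14), Bnip3 (2.08), Adm (2.06), Ndrg1 (1.65), Egln1 (1.46), Pdk1 (1.32), Vegfa (1.18) and P4ha1 (1.03). The falls were those of Slc2a3 (−2.04), Pfkp (−1.85), Slc16a1 (−1.69) and Egln3 (−1.01). At day 3, 20 members rose, 11 fell and 8 did not pass, beside 23.8% of all genes higher and 28.1% lower. At that day the arrays did not overlap with those of day 0 for 35 members, against 75.4% of all genes, and 11 members passed with a log2 change of 1 or more, against 9.23%. Of all genes called at day 3, 45.9% were higher, and 31.4% with median centring. Both comparisons share the day 0 arrays.

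**Figure D1:**
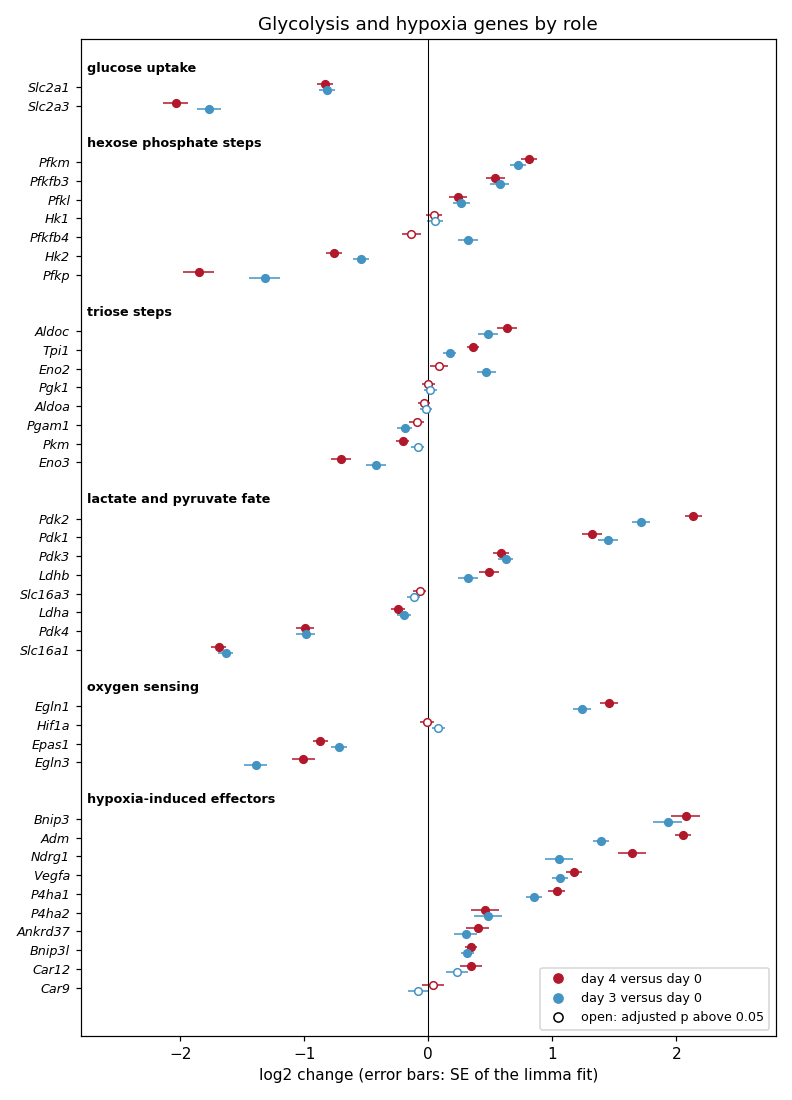
Log2 change of the 39 measured members at day 4 (red) and day 3 (blue), each versus day 0 and with the SE of the limma fit as error bar, grouped by role; open points did not pass the test. Hypoxia-induced effectors lie at or right of 0 at day 4, from 0.04 for Car9 to 2.08 for Bnip3, and both glucose carriers lie left of it.

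**Figure D2:**
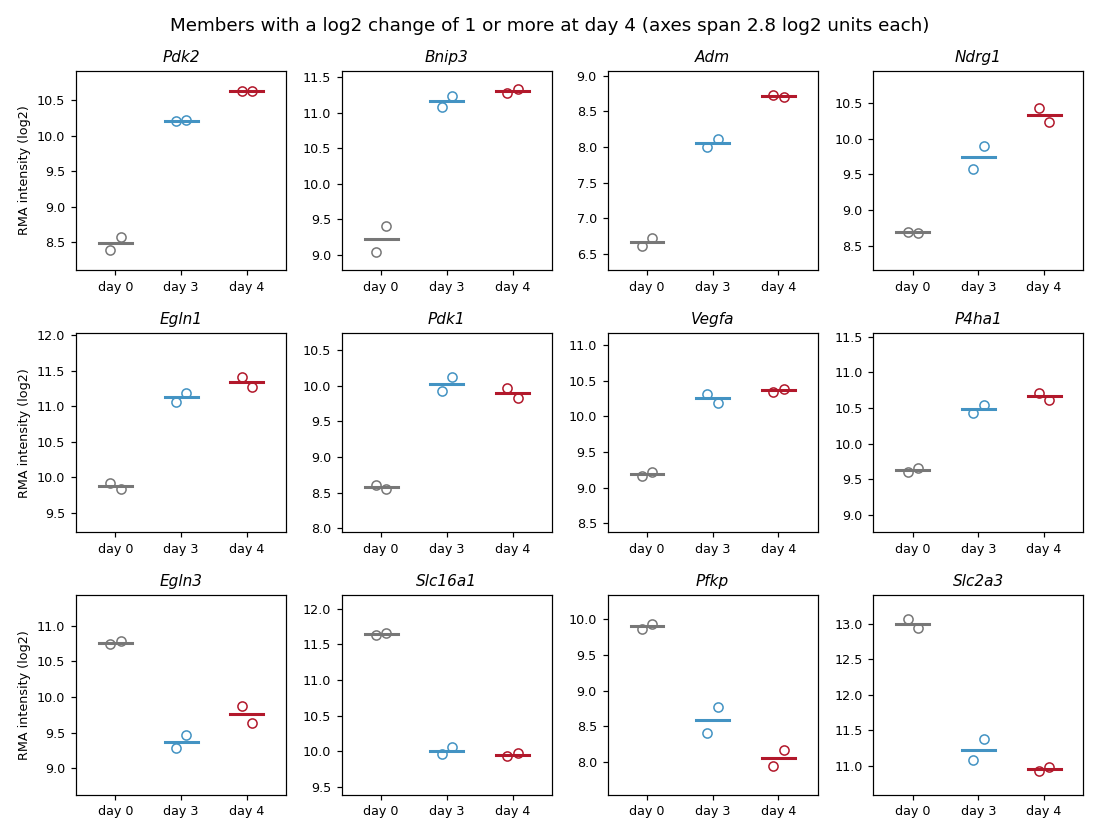
RMA intensity (log2) on each of the 6 arrays for the 12 members with a log2 change of 1 or more at day 4; circles are arrays, bars are the mean of a day, and each axis spans the same range. In every panel the 2 arrays of day 4 lie clear of the 2 of day 0. The members were picked by this change, so the gap is no separate result. Arrays of these days did not overlap for 73.0% of all genes.

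HIFs bind DNA at a core of 5 letters, ACGTG or GCGTG, and these letters were searched on both strands in the RefSeq promoter windows of GRCm38.p6, which run from 250 bases before to 50 bases after a transcription start. A palindrome CACGTG counts as 2 matches, 1 on each strand. Slc2a3, Epas1, Bnip3l and Ndrg1 had no window in the table used here. Of the 35 measured members that had one, 32 held a match in at least 1 window (91.4%), as did 55.3% of the 15614 tested genes that had one. By call at day 4, a match was found for 15 of 17 members that rose, for 9 of 9 that fell and for 8 of 9 that did not pass. Of all 32851 windows, 43.8% held a match and 3.86% held 4 or more. The core holds a CG pair, and promoters differ widely in how many such pairs they hold, so the letters alone mark no bound site. The windows of Bnip3, Egln1 and P4ha1, which rose, and of Slc16a1, Pfkp and Egln3, which fell, are printed to show where the letters stand in members that moved in opposite directions; capitals mark the matches on either strand, and each window is read 5′ to 3′ along its gene's strand.
Bnip3 (chr7:138909457-138909756, minus strand): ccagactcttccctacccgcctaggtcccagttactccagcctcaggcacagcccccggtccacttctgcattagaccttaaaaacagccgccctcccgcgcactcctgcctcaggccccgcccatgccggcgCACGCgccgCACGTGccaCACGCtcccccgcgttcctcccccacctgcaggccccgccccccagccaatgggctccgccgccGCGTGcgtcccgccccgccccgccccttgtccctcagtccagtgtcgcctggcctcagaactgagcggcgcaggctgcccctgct
Egln1 (chr8:124949205-124949504, minus strand): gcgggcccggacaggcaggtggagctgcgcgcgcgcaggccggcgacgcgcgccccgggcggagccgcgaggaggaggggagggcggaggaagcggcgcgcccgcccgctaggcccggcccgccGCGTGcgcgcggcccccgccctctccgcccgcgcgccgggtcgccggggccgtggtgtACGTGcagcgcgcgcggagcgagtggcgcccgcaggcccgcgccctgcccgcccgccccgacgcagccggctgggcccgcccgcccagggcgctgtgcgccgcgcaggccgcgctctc
P4ha1 (chr10:59323046-59323345, plus strand): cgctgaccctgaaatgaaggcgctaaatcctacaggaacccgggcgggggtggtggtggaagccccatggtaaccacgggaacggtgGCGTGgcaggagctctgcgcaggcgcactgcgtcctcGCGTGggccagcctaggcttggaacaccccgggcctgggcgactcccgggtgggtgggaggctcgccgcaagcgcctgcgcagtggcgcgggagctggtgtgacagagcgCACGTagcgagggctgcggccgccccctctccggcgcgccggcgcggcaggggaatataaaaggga
Slc16a1 (chr3:104638414-104638713, plus strand): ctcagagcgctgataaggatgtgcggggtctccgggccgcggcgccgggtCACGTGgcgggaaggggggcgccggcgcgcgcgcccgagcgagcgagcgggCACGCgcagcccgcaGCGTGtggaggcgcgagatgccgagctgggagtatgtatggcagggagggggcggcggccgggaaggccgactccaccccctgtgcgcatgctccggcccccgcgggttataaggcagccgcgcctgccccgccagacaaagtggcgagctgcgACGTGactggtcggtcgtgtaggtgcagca
Pfkp (chr13:6648722-6649021, minus strand): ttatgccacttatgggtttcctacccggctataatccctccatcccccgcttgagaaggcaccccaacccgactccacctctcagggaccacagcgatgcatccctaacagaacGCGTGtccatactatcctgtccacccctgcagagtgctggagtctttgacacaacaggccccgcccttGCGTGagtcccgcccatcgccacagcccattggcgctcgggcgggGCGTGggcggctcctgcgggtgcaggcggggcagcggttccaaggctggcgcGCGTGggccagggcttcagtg
Egln3 (chr12:54203825-54204124, minus strand): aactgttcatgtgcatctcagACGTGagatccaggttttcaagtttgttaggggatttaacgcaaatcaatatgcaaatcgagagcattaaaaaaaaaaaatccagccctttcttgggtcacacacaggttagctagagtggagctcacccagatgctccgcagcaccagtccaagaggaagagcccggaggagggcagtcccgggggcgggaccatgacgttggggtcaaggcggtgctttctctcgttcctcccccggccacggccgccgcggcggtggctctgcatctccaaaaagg
Bnip3 and Slc16a1 held 5 matches each, Pfkp 4, P4ha1 3, Egln1 2 and Egln3 1. Of the windows printed, those of Bnip3, which rose, and Slc16a1, which fell, held the most matches. The number of matches was not compared with direction over the members.

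The effectors, genes that low oxygen induces in many cell types, mostly rose. Of 10, 9 rose at day 4, 0 fell and only Car9 did not pass, with a median log2 change of 0.75. At day 3, 8 rose and 2 did not pass, with a median of 0.67. Of all genes, 25.9% rose and 25.6% fell at day 4, and 23.8% rose and 28.1% fell at day 3. Bnip3, which encodes a mitochondrial protein of the Bcl2 family that promotes mitophagy, read 9.05 and 9.40 on the day 0 arrays, 11.08 and 11.23 on those of day 3, and 11.28 and 11.33 on those of day 4 (RMA, log2). Both day 4 arrays lay above both day 0 arrays, and the change at day 4 was 2.08 (SE 0.12, adjusted p = 5.31e-06), or 4.22-fold. The probe set used for Bnip3 is numbered among genes of chromosome 14, whereas the gene is on chromosome 7. Its other probe set, numbered among genes of chromosome 7, gave a rise of 1.91 (adjusted p = 1.74e-05). Bnip3l, its close relative, which red cells need to clear mitochondria, read 12.74 and 12.78 on the day 0 arrays, 13.09 and 13.07 on those of day 3, and 13.11 and 13.10 on those of day 4. Its arrays of day 4 lay above those of day 0, with a rise of 0.34 (SE 0.05, adjusted p = 9.06e-04). It also rose at day 3, by 0.32 (adjusted p = 0.00152), while the red cell genes stood far higher at day 3 than at day 4, and their part in the values of Bnip3l was not tested.

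Adm encodes adrenomedullin, a secreted peptide that widens vessels. It was near the dim end of the scale at day 0 and read 6.61 and 6.71 on the day 0 arrays, 8.00 and 8.12 on those of day 3, and 8.73 and 8.71 on those of day 4. The change at day 4 was 2.06 (SE 0.07, adjusted p = 4.20e-07), or 4.16-fold, and the days formed 3 separate steps with no overlap. Vegfa, the main growth factor of blood vessels, read 9.16 and 9.22 on the day 0 arrays, 10.31 and 10.19 on those of day 3, and 10.35 and 10.38 on those of day 4. It was 2.26-fold higher at day 4, with a log2 change of 1.18 (SE 0.06, adjusted p = 4.25e-06), and its arrays of day 4 lay just above those of day 3, a gap that did not pass the test (adjusted p = 0.220). Ndrg1, a gene of differentiation and stress named for its regulation by N-myc, read 8.69 and 8.68 on the day 0 arrays, 9.57 and 9.90 on those of day 3, and 10.43 and 10.23 on those of day 4. Its change at day 4 was 1.65 (SE 0.11, adjusted p = 1.57e-05) and its 3 days did not overlap.

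P4ha1 and P4ha2 encode the alpha subunits of prolyl 4-hydroxylase, which modifies collagen. P4ha1 read 9.60 and 9.66 on the day 0 arrays, 10.42 and 10.54 on those of day 3, and 10.71 and 10.62 on those of day 4, with a log2 change of 1.03 (SE 0.07, adjusted p = 1.04e-05) at day 4. P4ha2 read 8.29 and 8.24 on the day 0 arrays, 8.58 and 8.92 on those of day 3, and 8.79 and 8.65 on those of day 4, with a change of 0.46 (SE 0.11, adjusted p = 0.0104). Both rose, and P4ha1 had the larger log2 change, a difference that was not tested. The call of P4ha2 at day 4 was lost on leaving out day 0 replicate 2 (adjusted p = 0.0562) or day 4 replicate 1 (0.0696). Mesenchyme genes, which mark cells that make collagen, also rose at day 4 (6 of 7), beside 25.9% of all genes, while the collagen gene Col1a1 fell (−0.16). The part of these cells in the rise of the hydroxylase genes was not tested.

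Ankrd37, an ankyrin repeat gene induced by HIF, rose by 0.40 (SE 0.09, adjusted p = 0.00891) at day 4, and its call was lost on leaving out day 0 replicate 2 (adjusted p = 0.0573) or day 4 replicate 1 (0.0536). At day 3 it rose by 0.30 (adjusted p = 0.0300), a call lost on leaving out day 0 replicate 1 (0.0518), day 0 replicate 2 (0.144) or day 3 replicate 2 (0.145) and under median centring (0.0909). The carbonic anhydrases Car9 and Car12 sit in the plasma membrane and help to regulate pH outside the cell. Car9, a textbook HIF target, read 5.29 and 5.43 on the day 0 arrays, 5.20 and 5.36 on those of day 3, and 5.32 and 5.48 on those of day 4. It was the only member with a mean below 6 on all 3 days, a range in which RMA compresses differences, and its days overlapped (adjusted p = 0.755 at day 4). Car12 read 7.66 and 7.74 on the day 0 arrays, 7.83 and 8.03 on those of day 3, and 7.96 and 8.13 on those of day 4, with a change of 0.34 (SE 0.09, adjusted p = 0.0134) at day 4 and of 0.23 at day 3 (adjusted p = 0.0633). The day 4 call of Car12 was lost under median centring (adjusted p = 0.103) and on leaving out day 0 replicate 1 (0.0736) or day 4 replicate 2 (0.0849). At day 3 it passed without day 3 replicate 1 (0.33, adjusted p = 0.0302).

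Of the 4 genes of oxygen sensing, 1 rose, 2 fell and 1 did not pass at day 4, beside 25.9% of all genes higher and 25.6% lower. The 2 hydroxylases moved in opposite directions. Egln1, the main HIF prolyl hydroxylase in most tissues, read 9.93 and 9.84 on the day 0 arrays, 11.06 and 11.19 on those of day 3, and 11.41 and 11.27 on those of day 4. It was 2.75-fold higher at day 4 (1.46, SE 0.07, adjusted p = 3.41e-06). Egln3, a hydroxylase that HIF itself strongly induces in many cells, read 10.75 and 10.78 on the day 0 arrays, 9.28 and 9.47 on those of day 3, and 9.87 and 9.64 on those of day 4. It was 2.01-fold lower at day 4 (−1.01, SE 0.09, adjusted p = 7.00e-05) and 2.62-fold lower at day 3 (−1.39, SE 0.09, adjusted p = 1.54e-05). Thus Egln3 stood below day 0 on all 4 later arrays. Hif1a, the alpha subunit that drives most glycolytic targets, read 11.87 and 11.86 on the day 0 arrays, 11.95 and 11.94 on those of day 3, and 11.90 and 11.82 on those of day 4, a log2 change of −0.01 (SE 0.05, adjusted p = 0.913) at day 4. These are levels of mRNA, and HIF activity is set mainly by protein stability, which arrays do not measure. With median centring Hif1a passed as lower (−0.15, adjusted p = 0.0329). Epas1, which encodes HIF-2 alpha and is prominent in endothelium, read 8.45 and 8.35 on the day 0 arrays, 7.66 and 7.70 on those of day 3, and 7.48 and 7.59 on those of day 4, a fall of 0.87 on the log2 scale (SE 0.06, adjusted p = 2.13e-05). Of the endothelial markers, 5 of 7 rose at day 4 and Kdr (−1.04) and Tek (−1.14) fell. Their part in the fall of Epas1 was not tested.

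**Figure D3:**
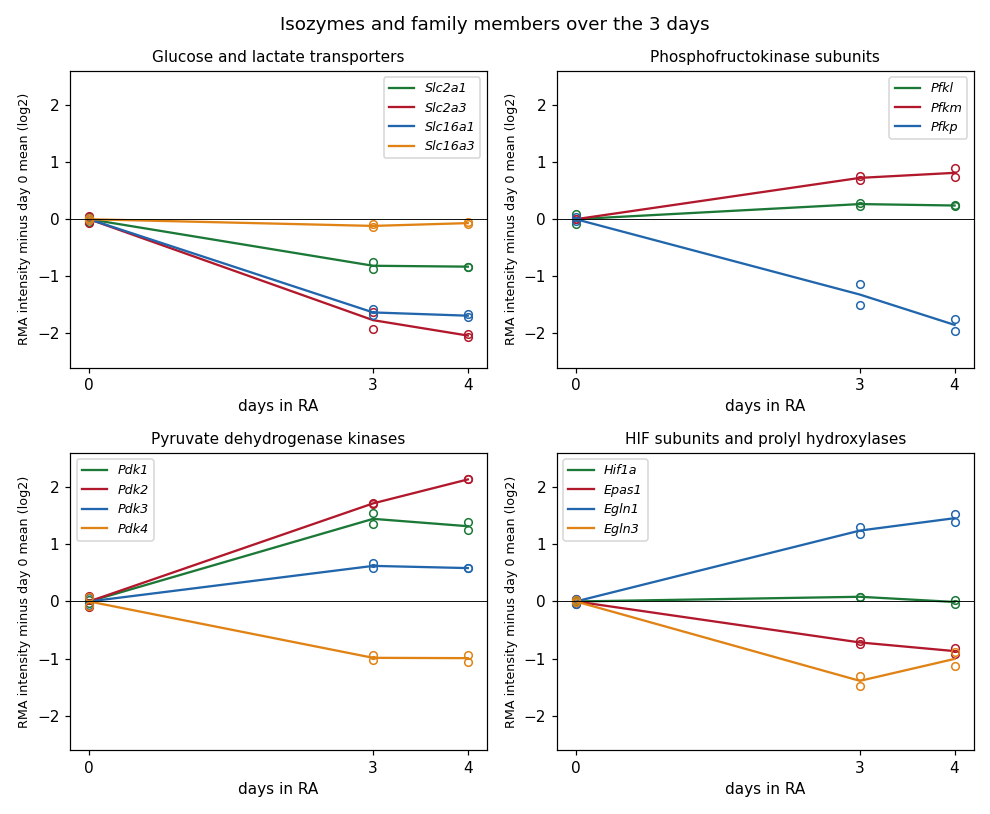
RMA intensity minus the day 0 mean of the gene (log2) against days in RA, with circles for arrays and lines through the means of a day, for carriers, phosphofructokinase subunits, pyruvate dehydrogenase kinases, and HIF subunits with prolyl hydroxylases. Members of a family part from each other, as Pdk2 at 2.14 and Pdk4 at −0.99 do at day 4.

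Members of the pyruvate dehydrogenase kinase family split. These kinases inactivate pyruvate dehydrogenase and so hold pyruvate back from mitochondria. Pdk1, a HIF target, read 8.61 and 8.56 on the day 0 arrays, 9.93 and 10.13 on those of day 3, and 9.97 and 9.84 on those of day 4. It was 2.50-fold higher at day 4 (1.32, SE 0.08, adjusted p = 8.36e-06). Pdk2, the most widely expressed member, read 8.39 and 8.58 on the day 0 arrays, 10.20 and 10.21 on those of day 3, and 10.62 and 10.62 on those of day 4, the largest log2 change of the 39 members at day 4 (2.14, SE 0.07, adjusted p = 4.88e-07), or 4.40-fold. The change of Pdk2 exceeded that of Bnip3 and Adm by less than the SE of Bnip3. Pdk3 read 10.77 and 10.65 on the day 0 arrays, 11.29 and 11.37 on those of day 3, and 11.29 and 11.29 on those of day 4, a smaller rise (0.58, SE 0.06, adjusted p = 1.58e-04). Pdk4, which fasting and fatty acids induce in muscle and heart, read 7.23 and 7.38 on the day 0 arrays, 6.37 and 6.27 on those of day 3, and 6.25 and 6.38 on those of day 4. It was 1.99-fold lower at day 4 (−0.99, SE 0.07, adjusted p = 2.46e-05), where its mean of 6.31 was near the dim end of the scale. Thus 3 kinases rose and 1 fell at day 4, beside 25.9% of all genes higher and 25.6% lower. For each of the 4 the arrays of day 4 and day 0 did not overlap, as for 73.0% of all genes.

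Lactate dehydrogenase converts pyruvate and lactate into each other, with Ldha the subunit of glycolytic tissues and Ldhb that of the heart. Ldha fell by 0.24 on the log2 scale at day 4 (SE 0.05, adjusted p = 0.00662), while Ldhb rose by 0.49 (SE 0.08, adjusted p = 0.00142). At day 3 they were at −0.20 (adjusted p = 0.0187) and 0.32 (0.0112). The day 3 call of Ldha was lost on leaving out day 0 replicate 1 (adjusted p = 0.0527), day 0 replicate 2 (0.0782) or day 3 replicate 1 (0.110) and with cyclic loess (0.0644). That of Ldhb was lost on leaving out day 3 replicate 2 (0.0550) and under median centring (0.0558). Slc16a1 encodes MCT1, which carries lactate and pyruvate across the plasma membrane, and read 11.63 and 11.66 on the day 0 arrays, 9.96 and 10.06 on those of day 3, and 9.93 and 9.98 on those of day 4. It was 3.23-fold lower at day 4 (−1.69, SE 0.06, adjusted p = 6.60e-07), and the 4 arrays in RA lay together. Slc16a3 encodes MCT4, the carrier of lactate export from glycolytic cells and a HIF target, and read 11.82 and 11.86 on the day 0 arrays, 11.70 and 11.75 on those of day 3, and 11.79 and 11.75 on those of day 4. It did not pass at day 4 (−0.07, adjusted p = 0.340), though it passed as lower with median centring (−0.21, adjusted p = 0.0109).

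Both glucose carriers fell. Slc2a1 encodes GLUT1, the common carrier of dividing cells, and read 13.41 and 13.32 on the day 0 arrays, 12.49 and 12.62 on those of day 3, and 12.54 and 12.54 on those of day 4. It was 1.78-fold lower at day 4, with a log2 change of −0.83 (SE 0.07, adjusted p = 2.84e-05). Slc2a3 encodes GLUT3, a carrier of high affinity found in neurons and early embryos, and read 13.06 and 12.94 on the day 0 arrays, 11.08 and 11.38 on those of day 3, and 10.94 and 10.99 on those of day 4. It was 4.11-fold lower at day 4 (−2.04, SE 0.10, adjusted p = 2.88e-06), the deepest fall among the 39 members, and 3.41-fold lower at day 3 (−1.77, SE 0.10, adjusted p = 6.48e-06). For both genes the arrays of day 4 and day 3 lay below those of day 0. Arrays did not overlap with those of day 0 for 73.0% of all genes at day 4 and 75.4% at day 3. At day 4 the markers of pluripotent cells fell (10 of 10), as did those of dividing cells (6 of 6), beside 25.6% of all genes. The summed intensities of the dividing cell markers were 22337 to 22361 at day 0, 18470 to 19073 at day 3 and 15888 to 15966 at day 4. At day 3, 4 of these 6 fell, 1 rose (Mki67, 0.23) and 1 did not pass, beside 28.1% of all genes lower and 23.8% higher. The part of both marker sets in the fall of the carriers was not tested. Slc2a1 is also a HIF target, as are several of the effectors that rose, and the part of HIF in these changes was not tested.

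Of 7 measured genes of the hexose phosphate steps, 3 rose, 2 fell and 2 did not pass at day 4. Hk1 is counted among those that did not pass, by its brightest probe set, though its other probe set rose, as given below. The shares over all genes were 25.9% higher and 25.6% lower. Phosphofructokinase, which commits sugar to glycolysis, is a tetramer of liver (Pfkl), muscle (Pfkm) and platelet (Pfkp) subunits. Pfkp read 9.87 and 9.94 on the day 0 arrays, 8.40 and 8.76 on those of day 3, and 7.94 and 8.16 on those of day 4 and was 3.61-fold lower at day 4 (−1.85, SE 0.12, adjusted p = 1.33e-05). Pfkm read 9.82 and 9.82 on the day 0 arrays, 10.58 and 10.52 on those of day 3, and 10.71 and 10.55 on those of day 4 and was 1.75-fold higher (0.81, SE 0.07, adjusted p = 4.03e-05). Pfkl read 10.69 and 10.86 on the day 0 arrays, 11.01 and 11.06 on those of day 3, and 11.02 and 11.00 on those of day 4, a rise of 0.24 (SE 0.07, adjusted p = 0.0225). The subunits thus moved apart, with the platelet form down and the muscle form up. Of 10 markers of cardiac and skeletal muscle, 1 rose at day 4 (Tnnt2, 0.79), 2 fell (Actn2, −1.09, and Nkx2-5, −0.42) and 7 did not pass. Their summed intensity was 1324 to 1348 at day 4 and 1334 to 1377 at day 0, and 3 of them had means below 6 on each of these days. The part of muscle cells in the changes of the subunits was not tested. The call of Pfkl at day 4 was lost on leaving out day 0 replicate 1 (adjusted p = 0.115), day 4 replicate 1 (0.0897) or day 4 replicate 2 (0.0702) and under median centring (0.293). At day 3 Pfkl rose by 0.27 (adjusted p = 0.0149), which was lost on leaving out day 0 replicate 1 (0.0748) or day 3 replicate 2 (0.0775) and under median centring (0.0873).

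Hexokinase traps glucose as its phosphate. Hk2, the inducible form of muscle and many tumours, fell by 0.76 on the log2 scale at day 4 (SE 0.06, adjusted p = 4.11e-05) and by 0.54 at day 3 (2.65e-04). Hk1, the form of most tissues, depended on the probe set. The brightest, 10414661, read 13.13 and 13.18 on the day 0 arrays, 13.25 and 13.17 on those of day 3, and 13.14 and 13.26 on those of day 4 and did not pass (0.05, adjusted p = 0.569). It is numbered among genes of chromosome 14, whereas Hk1 is on chromosome 10, and its only accession is also listed for 16 probe sets that carry the name of the ribosomal protein gene Rpl17. The other, 10369541, is numbered among genes of chromosome 10 and read 8.48 and 8.33 on the day 0 arrays, 9.06 and 9.15 on those of day 3, and 9.08 and 8.99 on those of day 4. With it, Hk1 rose by 0.63 at day 4 (adjusted p = 2.09e-04) and by 0.69 at day 3 (1.34e-04). Pfkfb3 and Pfkfb4 encode enzymes that make fructose 2,6-bisphosphate, an activator of phosphofructokinase. Pfkfb3 rose by 0.54 (SE 0.07, adjusted p = 6.21e-04) at day 4. Pfkfb4 was higher at day 3 (0.32, adjusted p = 0.0106) and did not pass at day 4 (−0.14, adjusted p = 0.192). Its day 3 call was lost on leaving out day 0 replicate 2 (0.0579) or day 3 replicate 1 (0.0563), and at day 4 it passed as lower without day 4 replicate 1 (0.0282) or with median centring (0.0125).

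The triose steps, which yield the ATP of glycolysis, held no member with a log2 change of 1 or more. Of 8 measured genes, 2 rose, 2 fell and 4 did not pass at day 4, and log2 changes ran from −0.70 to 0.64. Among all genes at that day, 25.9% rose and 25.6% fell. Pgk1, phosphoglycerate kinase, read 12.49 and 12.53 on the day 0 arrays, 12.51 and 12.54 on those of day 3, and 12.50 and 12.52 on those of day 4, and the 3 days overlapped. The muscle and general aldolase gene Aldoa was also flat at day 4 (−0.04, adjusted p = 0.619), whereas the brain form Aldoc rose by 0.64 (SE 0.08, adjusted p = 3.62e-04). With median centring Pgk1 (−0.145, adjusted p = 0.0469) and Aldoa (−0.18, 0.0196) passed as lower. The muscle enolase gene Eno3 fell by 0.70 on the log2 scale (SE 0.08, adjusted p = 2.33e-04), and the neuronal form Eno2 did not pass at day 4 (0.09, adjusted p = 0.388) after standing 0.47 above day 0 at day 3 (0.00140). Tpi1, triose phosphate isomerase, rose by 0.36 (SE 0.05, adjusted p = 7.13e-04), and Pkm, the pyruvate kinase gene, fell by 0.21 (SE 0.05, adjusted p = 0.0126). The call of Pkm was lost on leaving out day 0 replicate 1 (0.0513) or day 4 replicate 1 (0.0647). Pgam1, phosphoglycerate mutase, was lower at day 3 (−0.19, adjusted p = 0.0352) and at −0.09 at day 4 (0.262). Its day 3 call was lost on leaving out any array but day 3 replicate 2, with cyclic loess and with only the days compared. The day 3 rise of Tpi1 (0.17, adjusted p = 0.0260) was lost on leaving out any of the day 0 and day 3 arrays (0.0666 to 0.119) and under median centring (0.260).

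Between day 3 and day 4 fewer members changed. Of 39, 5 rose, 5 fell and 29 did not pass, beside 15.8% of all genes higher and 12.2% lower, and the arrays did not overlap for 25 members, against 66.5% of all genes. Of all genes called, 56.4% were higher, and 42.4% with median centring. None passed with a log2 change of 1 or more, which 0.767% of all genes did. Adm (0.66, SE 0.07, adjusted p = 8.48e-04), Pdk2 (0.42, adjusted p = 0.00560) and Ndrg1 (0.59, 0.00959) rose further from day 0. Egln3 (0.38, adjusted p = 0.0223) rose in the other sense, back towards its day 0 level, and Tpi1 rose by 0.19 (0.0338). Pfkp (−0.53, adjusted p = 0.0194), Eno3 (−0.28, 0.0420) and Hk2 (−0.21, 0.0441) fell further. Pfkfb4 (−0.46, adjusted p = 0.00602) and Eno2 (−0.38, 0.0102) fell from a day 3 level above that of day 0. Only the calls of Adm, Pdk2 and Pfkfb4 held in all 14 alternative settings. Under median centring the call of Tpi1 was lost (adjusted p = 0.0927), and with the replicate block those of Eno3 (0.0563) and Hk2 (0.0570). Without day 3 replicate 1 the calls of Egln3 (adjusted p = 0.124), Eno2 (0.0671), Hk2 (0.117) and Tpi1 (0.155) were lost. Without day 3 replicate 2 those of Pfkp (0.0675), Eno3 (0.190), Hk2 (0.166) and Tpi1 (0.0887) were lost. Without day 4 replicate 1 those of Ndrg1 (0.0553), Egln3 (0.0960), Pfkp (0.0989), Eno3 (0.156), Hk2 (0.125) and Tpi1 (0.0819) were lost. Without day 4 replicate 2 those of Eno2 (0.0646), Eno3 (0.104), Hk2 (0.141) and Tpi1 (0.130) were lost, while Slc2a3 passed as lower without day 3 replicate 1 (−0.42, adjusted p = 0.0270). Over all genes, 5593 passed with all arrays, 2728 without day 3 replicate 1, 3650 without day 3 replicate 2 and 3005 without day 4 replicate 2.

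**Figure D4:**
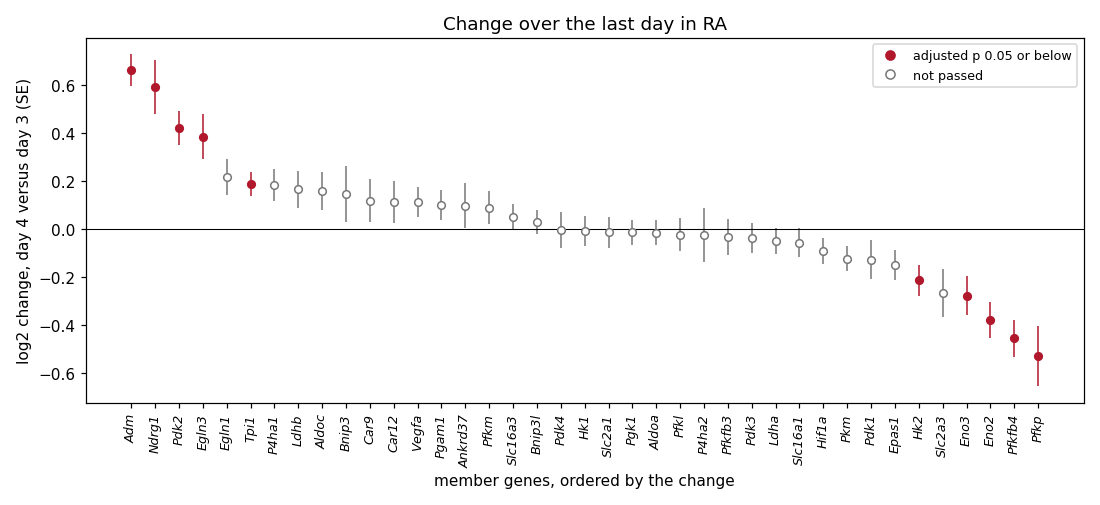
Log2 change between day 4 and day 3 of the 39 members, ordered by size, with the SE of the limma fit; filled points passed the test. Adm (0.66) and Ndrg1 (0.59) stand highest and Pfkp (−0.53) lowest, and most members lie within 0.2 of 0.

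Further genes of these pathways were listed apart from the members, also with earlier results of these data known. The counts below stand beside 25.9% of all genes higher and 25.6% lower at day 4. Of 8 genes of the HIF pathway, 5 rose, 2 fell and 1 did not pass at day 4. Hif3a, whose products can restrain HIF signalling, rose by 1.38 (SE 0.07, adjusted p = 2.66e-06) and Arnt2, a partner subunit of HIF alpha, by 1.20 (SE 0.06, adjusted p = 2.89e-06), while Cited2, which competes with HIF-1 alpha for coactivators, fell by 1.75 (SE 0.06). Egln2, the other HIF prolyl hydroxylase, did not pass (0.12, adjusted p = 0.131). Of 35 further hypoxia targets, 23 rose, 8 fell and 4 did not pass, with a median of 0.51. At day 3, 21 rose, 7 fell and 7 did not pass, beside 23.8% of all genes higher and 28.1% lower. The 3 largest changes of this list as fitted were rises. They were those of Lox, a collagen crosslinking enzyme (2.72, SE 0.20, adjusted p = 2.12e-05), of the vessel factor gene Angpt2 (2.63, SE 0.08, adjusted p = 3.43e-07) and of Ppp1r3c, which directs a phosphatase to glycogen (2.26, SE 0.10, adjusted p = 1.77e-06). Lox (mean 5.03) and Ppp1r3c (mean 5.98) were below 6 at day 0, in the dim range where RMA compresses differences, so the size and rank of their changes are uncertain. Among the 8 that fell, Pdgfb (−1.77, SE 0.08) and Tfrc (−1.22, SE 0.06) changed most. Mif (0.11, adjusted p = 0.115) and Epo (−0.18, 0.0856), the gene of the hormone erythropoietin, did not pass.

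Of 16 further glycolytic isozymes and regulators, 2 rose, 5 fell and 9 did not pass at day 4. For this list and the next, the shares over all genes were 25.9% higher and 25.6% lower. The insulin-responsive glucose carrier Slc2a4 (GLUT4) rose by 1.72 (SE 0.09, adjusted p = 3.18e-06), opposite to Slc2a1 and Slc2a3. The muscle mutase Pgam2 (−1.33, SE 0.09, adjusted p = 1.50e-05) and the sperm enolase Eno4 (−1.05, SE 0.07, adjusted p = 1.70e-05) fell. The mean of Pgam2 at day 4 was 6.25, near the dim end. That of Eno4 was 5.89, in the range below 6 where RMA compresses differences, so the size of its fall is uncertain. Ldhc (−0.20, adjusted p = 0.178) and Pklr (−0.16, 0.152) did not pass. Of 9 genes of pyruvate entry into mitochondria, 1 rose, 4 fell and 4 did not pass. The riser was Mpc1, a subunit of the mitochondrial pyruvate carrier (1.49, SE 0.06, adjusted p = 1.22e-06). Pcx, pyruvate carboxylase (−0.41, adjusted p = 6.28e-04), and Pdha1, the catalytic subunit that Pdk kinases phosphorylate (−0.35, 0.00109), fell, and the other catalytic subunit gene Pdhb did not pass (0.18, 0.0631). Mpc2, also listed, had no probe set with a single symbol. Thus Mpc1 and 3 of the 4 Pdk genes rose, while Pdha1 fell.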

How the data were processed

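Expression was measured on Affymetrix Mouse Gene 1.0 ST arrays, with 2 arrays for each day. The authors imported the scans into Partek Genomic Suite and normalised them by RMA, and the deposited values are log2 intensities per probe set, made comparable between arrays by quantile normalisation, so changes are relative to other transcripts. The methods name a version of this software for the sequenced RNA only, and the version used for the arrays and their genome build are not given there. Of 35557 probe sets, 21789 carried a single symbol, 1621 several and 12147 none in the annotation table used, and 21698 of the single symbols matched RefSeq. The brightest probe set stood for a gene, which left 19938 genes. For 5 members (Hk1, Pgk1, Pgam1, Bnip3 and Bnip3l) this probe set is numbered among genes of another chromosome, and the brightest one numbered within their own was tried as an alternative chosen after seeing the data. One limma model with a coefficient per day was fitted to all 6 arrays (R 4.3.3, limma 3.58.1, residual df 3), and p-values were adjusted by Benjamini-Hochberg over all genes with a threshold of 0.05. The code was tested on simulated data. Values on all arrays are given for members that passed with a log2 change of 1 or more, for members of their isozyme families (Slc2a, Pfk, Pdk, Slc16a, Egln and P4ha) and for 4 that passed no comparison with their brightest probe set (Hk1, Pgk1, Hif1a and Car9). Epas1, Car12 and Bnip3l fall outside this rule and were added after their values were seen. From each further list the 3 largest calls at day 4 and up to 2 that did not pass are named. Pdgfb and Tfrc were added to these after their values were seen. Alternatives were median centring, cyclic loess, an intensity trend with robust moderation, a filter on a mean of 6, the mean of probe sets, only the days compared, a replicate block and leaving out each array. The members and lists were chosen with earlier results of these data known.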

Additional observations from a re-analysis of the deposited data

How the results depend on the processing

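Of the members called with all arrays, 25 of 30 at day 4 and 24 of 31 at day 3, both set against day 0, and 3 of 10 between the later days were called in all 14 alternative settings, and all kept their sign. Changes of sign were found only among members that had not passed. With median centring, day 4 versus day 0 was −0.10 for Hk1, −0.145 for Pgk1, −0.06 for Eno2 and −0.11 for Car9, day 3 versus day 0 was −0.044 for Hk1, −0.084 for Pgk1 and −0.018 for Hif1a, and day 4 versus day 3 was −0.018 for Bnip3l. With cyclic loess, Hif1a was at 0.024 (day 4 versus day 0) and Aldoa at 0.040 (day 3 versus day 0). Pgk1 was at −0.002 with the mean of probe sets and at −0.007 with the probe set numbered within its own chromosome (day 4 versus day 0). Leaving out 1 array gave, at day 4 versus day 0, −0.01 to 0.107 for Hk1, −0.017 to 0.019 for Pgk1, −0.002 to 0.176 for Eno2, −0.048 to 0.03 for Hif1a and −0.041 to 0.118 for Car9. At day 3 versus day 0 it gave −0.002 to 0.034 for Pgk1 and −0.16 to 0.002 for Car9. At day 4 versus day 3 it gave −0.08 to 0.049 for Slc2a1, −0.066 to 0.051 for Hk1, −0.051 to 0.001 for Pfkl, −0.092 to 0.02 for Pfkfb3, −0.031 to 0.001 for Pgk1, −0.081 to 0.003 for Pdk3, −0.068 to 0.057 for Pdk4, −0.039 to 0.232 for Ankrd37 and −0.195 to 0.143 for P4ha2. Members lower at day 4 versus day 0 numbered 17 with median centring and 11 without it, since that setting lowered the median of all genes. Between day 4 and day 3, 9 members were higher with an intensity trend and robust moderation, and leaving out 1 array gave 2 to 5 higher, 2 to 5 lower and 2728 to 5276 genes called in all, where fewer arrays entered the fit. With the replicate block 3 members were lower between day 4 and day 3, against 5 without it. Over all genes the block called 10251 at day 4 and 10359 at day 3, each against day 0, and 5469 between the later days. Arrays of the same number deviated together only weakly (r of 0.034, 0.058 and 0.083 for the 3 pairs of days), so the numbers were not taken to pair the arrays. With 2 arrays a day, precision is limited by their number, and Car9, the one member below 6 on all days, had no value with the filter on dim genes.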
